A study of Mus musculus with 16 samples.

Results

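Fgf21 and Gdf15, the genes of a pair of secreted hormones, were followed in the quadriceps of mice carrying an ANT1 transgene. They were taken by symbol and are 2 of the 19108 genes counted in each library. Messenger RNA was sequenced from the muscle of 16 C57BL/6 mice aged 6 months and fed regular chow, 4 per sex and genotype. The 8 transgenic mice have the labelled genotype ANT1(Tg)/+ (Tg here), and the 8 wild-type mice (WT) carry no labelled allele. Neither the promoter of the transgene nor the tissues in which it acts were given with these data. Each library is 1 mouse, and numbers within a group follow the order of deposition. ANT1, encoded by Slc25a4, is a carrier of mitochondria that lets ADP in and ATP out.

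FGF21 is a fibroblast growth factor that circulates as a hormone and acts on cells that carry an FGF receptor together with the co-receptor beta-Klotho. It is best known as a product of the liver, and muscle with damaged mitochondria is a known further source. GDF15 is a distant member of the TGF-beta superfamily that acts on the hindbrain through GFRAL, which signals together with the kinase RET, and lowers food intake. Both genes are known targets of the integrated stress response, in which phosphorylation of eIF2 alpha favours translation of the transcription factor ATF4.

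Fgf21 (ENSMUSG00000030827.5) lies on the minus strand at chr7:45613886-45615490 of GRCm38, with 1 annotated transcript of 951 exonic bases and 210 coding codons. Gdf15 (ENSMUSG00000038508.7) lies on the minus strand at chr8:70629393-70632456, with 2 annotated transcripts, 1852 exonic bases in all and 303 coding codons. Neither gene overlaps another annotated gene. The 250 bases before each gene's outermost start site are printed from RefSeq (GRCm38.p6, gene strand, 5′ to 3′), because the genes moved together and their promoters can be set side by side. Capitals mark matches to 5 motifs, each searched on both strands. TGATGNAA is the composite element that ATF4 binds together with C/EBP proteins. CACGTG is an E-box, the site of a large class of helix-loop-helix factors. The letters TATAAA were taken for the TATA box that positions the transcription start. A cAMP response element, bound by CREB and ATF factors, was read as TGACGTCA. The antioxidant response element, to which NRF2 binds, was read as TGACNNNGC. The Fgf21 bases are chr7:45615491-45615740, the Gdf15 bases are chr8:70632457-70632706, and the short Gdf15 piece, chr8:70632164-70632187, lies before the start of the shorter annotated transcript and in the first exon of the longer one.
Fgf21 upstream: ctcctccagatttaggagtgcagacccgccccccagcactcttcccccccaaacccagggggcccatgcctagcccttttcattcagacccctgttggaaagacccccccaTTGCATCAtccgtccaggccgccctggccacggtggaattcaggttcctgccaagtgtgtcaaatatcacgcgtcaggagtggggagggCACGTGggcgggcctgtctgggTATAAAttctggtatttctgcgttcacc
Gdf15 upstream: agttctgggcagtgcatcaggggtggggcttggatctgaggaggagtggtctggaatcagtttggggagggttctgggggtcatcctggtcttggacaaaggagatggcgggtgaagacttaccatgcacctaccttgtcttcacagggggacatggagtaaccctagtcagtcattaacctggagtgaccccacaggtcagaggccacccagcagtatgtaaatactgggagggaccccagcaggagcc
Gdf15 E-box: agggcagggCACGTGtgagcatcc

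Upstream of Fgf21, the composite element was matched on the other strand at bases -139 to -132 from the start site, the E-box at -50 to -45 and the TATA box at -28 to -23. In the Gdf15 windows, only the E-box was matched, at -83 to -78 from the start at base 70632095, and none of the 5 motifs was found in the window of the start at base 70632456. Of 32817 RefSeq promoter windows of 300 bases, 3.97% held the composite element, 7.15% the E-box, 13.6% the TATA box, 1.79% the cAMP response element and 12.4% the antioxidant response element. A match describes the letters in a window. Binding was not measured.

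Depth, in units of 1000000 counts, was 19.3 to 29.5 in Tg libraries (median 24.2) and 17.4 to 30.7 in WT libraries (median 21.9). Slc25a4 had 8507, 9588 and 11044 CPM (counts per 1000000) as lowest, median and highest of the 8 Tg libraries, against 2792, 3561 and 3919 CPM in the 8 WT libraries, with no overlap between the genotypes. Such a split, with Tg above WT, was seen for 5.23% of 13666 genes tested. The myofibre markers summed to 160274 to 226359 CPM in Tg muscle and 168665 to 265633 CPM in WT muscle, as the tissue label states. Between the genotypes, with the sexes averaged, 17.2% of 13666 genes tested were called higher in Tg and 13.3% lower, at an adjusted p under 0.05 in edgeR's quasi-likelihood test with Benjamini-Hochberg adjustment. Their median log2 fold change was -0.01. In 4 libraries, WT female 1, WT female 2, WT male 1 and Tg female 4, the summed adipocyte markers exceeded 2000 CPM or the summed brown adipocyte markers exceeded 200 CPM. The genotype effects on the hormone genes and the counts over gene lists are also given without these fat-rich libraries. For other genes the value without them is given where it ends a call, turns the direction or moves the fold change by over 1.5 times.

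Fgf21 was close to absent from WT muscle and well expressed in every Tg muscle. The Tg females had 30.9, 16.5, 31.7 and 16.9 CPM (851, 329, 904 and 411 counts) and the Tg males 19.2, 27.1, 25.2 and 44.1 CPM (530, 640, 664 and 897 counts). The WT females had 2, 2, 0 and 0 counts and the WT males 1, 0, 0 and 0. The genotypes did not overlap: the lowest Tg library had 16.5 CPM and the highest WT library 0.104 CPM. Fgf21 averaged 26.5 ± 9.27 CPM in Tg muscle and 0.027 ± 0.0405 CPM in WT muscle (SD, n = 8 each). The pooled counts, 5226 in Tg and 5 in WT libraries, stood in a depth-adjusted ratio of 948, with an exact 95% interval of 406 to 2921 that covers counting error only. A library with 0 counts allows up to 3 counts, which is 0.113 to 0.165 CPM in the 5 WT libraries at 0.

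Gdf15 showed the same split at a lower level. The Tg females had 4.14, 5.42, 3.72 and 5.03 CPM (114, 108, 106 and 122 counts) and the Tg males 4.96, 5.42, 2.73 and 5.06 CPM (137, 128, 72 and 103 counts). The WT females had 2, 2, 0 and 0 counts and the WT males 3, 2, 0 and 0 counts. Again no WT library reached a Tg library, with 2.73 CPM as the lowest Tg value and 0.134 CPM as the highest WT value. Gdf15 averaged 4.56 ± 0.95 CPM in Tg muscle and 0.05 ± 0.0564 CPM in WT muscle (SD, n = 8 each). The pooled counts were 890 in Tg and 9 in WT libraries, a ratio of 89.7 (exact 95% interval 47.0 to 197, counting error only).

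**Figure D1:**
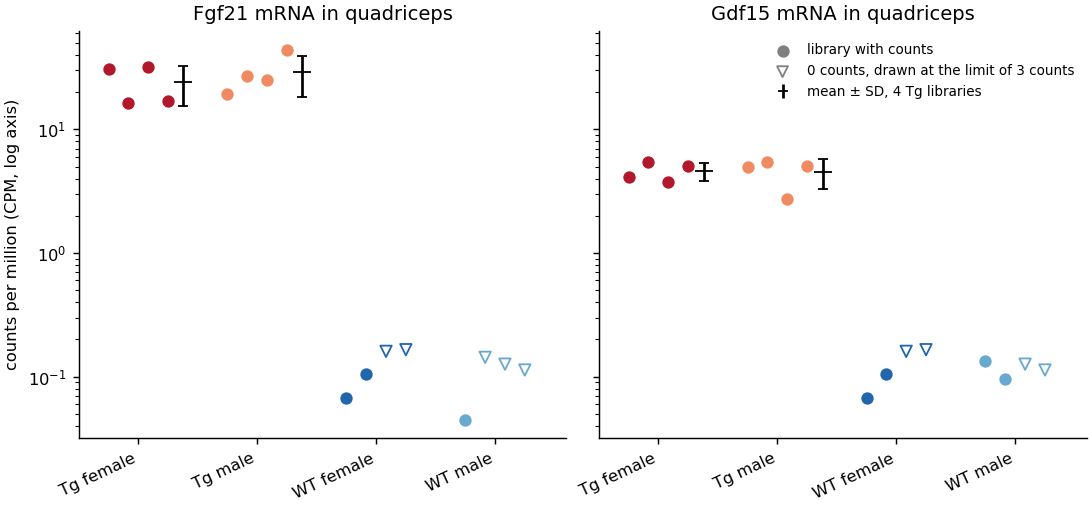
Fgf21 (left) and Gdf15 (right) in CPM on a log axis, each point 1 library, in Tg females, Tg males, WT females and WT males; open triangles are libraries with 0 counts drawn at the limit of 3 counts, and bars are mean ± SD of 4 Tg libraries. All 8 Tg libraries lie at 16.5 CPM or more for Fgf21 and 2.73 CPM or more for Gdf15, above every WT library.

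Both hormone genes were called higher in Tg muscle, where 17.2% of the genes tested were. The log2 fold change of Fgf21 was 9.84 (SE 0.40, edgeR adjusted p = 1.79e-10), which was place 2 among the called genes ordered by fold change. That of Gdf15 was 6.37 (SE 0.37, edgeR adjusted p = 2.8e-09), place 7 in that order. With so few WT counts these fitted values depend on the prior count: with a prior count of 5, the value was 6.79 for Fgf21 and 4.19 for Gdf15. The count ratios above do not use a prior count. The SE does not carry the full counting error of so few WT counts, which the intervals of those ratios show. An exact two-sided permutation test of log2 CPM gave p = 0.000155 for each gene, the smallest value that 12870 arrangements of 8 and 8 libraries allow. Every Tg library lay above every WT library for 5.23% of the genes tested.

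The rise was present in each sex. Among males, the log2 fold change was 10.82 (SE 0.60, edgeR adjusted p = 1.46e-08) for Fgf21 and 6.27 (SE 0.52, edgeR adjusted p = 4.76e-07) for Gdf15, where 9.85% of the genes tested were called higher and 8.39% lower. Among females it was 8.86 (SE 0.53, edgeR adjusted p = 3.36e-08) for Fgf21 and 6.47 (SE 0.54, edgeR adjusted p = 5.04e-07) for Gdf15, where 10.1% were called higher and 7.57% lower. The exact permutation p was 0.0286 for each gene in each sex, the smallest that 4 against 4 libraries allow. All 4 Tg libraries of a sex lay above its 4 WT libraries for 14% of the genes tested in males and 10.8% in females.

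The sexes did not differ in these effects at the threshold. The male effect minus the female effect was 1.96 (SE 1.63, edgeR adjusted p = 0.827) for Fgf21 and -0.20 (SE 1.02, edgeR adjusted p = 0.976) for Gdf15, and 0.00732% of the genes tested were called in that comparison. For Fgf21 it rests on 1 WT male count and 4 WT female counts: the count ratio was 2616 in males (exact 95% interval 469 to 103373) and 535 in females (209 to 1964), and these intervals overlap. The Gdf15 count ratio was 84.3 in males (35.9 to 261) and 96.4 in females (37.4 to 355).

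Levels can be compared between the sexes more closely within Tg muscle, where counts are ample. Fgf21 averaged 28.9 ± 10.7 CPM in Tg males and 24 ± 8.43 CPM in Tg females (SD, n = 4 each), a log2 difference of 0.26 (SE 0.28, edgeR adjusted p = 0.809), and the ranges overlap. Gdf15 averaged 4.54 ± 1.22 CPM in Tg males and 4.58 ± 0.783 CPM in Tg females, a log2 difference of -0.01 (SE 0.32, edgeR adjusted p = 0.996). Between the Tg sexes 0.527% of the genes tested were called. Both differences were smaller than the spread between mice. Without Tg male 4, the mouse with the highest Fgf21, the Fgf21 difference became -0.02.

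Per length, Fgf21 was the more abundant transcript. In TPM, which divides counts by exonic length, Fgf21 was 90.1 ± 32.5 in Tg muscle, from 51.8 to 156 (n = 8), which put it at place 1861 or higher among 18753 genes ordered by TPM in every Tg library. Gdf15 was 7.95 ± 1.65 TPM in Tg muscle, from 5.12 to 9.62, at places 6510 to 8750. In WT muscle Fgf21 was 0 to 0.387 TPM and Gdf15 0 to 0.229 TPM, and both lay at place 13827 or lower. Within a Tg library Fgf21 TPM exceeded Gdf15 TPM by 5.93-fold to 18-fold (mean 12 ± 5.06, n = 8).

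Levels differed between Tg mice. The highest Tg library exceeded the lowest 2.67-fold for Fgf21 CPM and 1.98-fold for Gdf15 CPM. The coefficient of variation was 35% for Fgf21, against 3.91% from counting alone, and 20.8% for Gdf15, against 9.48% from counting alone. The difference between the coefficients of the genes was not tested. Tg male 4 had the highest Fgf21 (44.1 CPM) and the third highest Gdf15 (5.06 CPM). The top value of Gdf15, 5.42 CPM, was shared by Tg female 2, with the lowest Fgf21 (16.5 CPM), and Tg male 2, with 27.1 CPM of Fgf21. Across the 8 Tg libraries, Pearson's r between the log2 CPM of the genes was -0.23 (exact permutation p = 0.59) and Spearman's rho -0.31 (exact permutation p = 0.462), and r was -0.32 without the 2 libraries farthest in x.

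**Figure D2:**
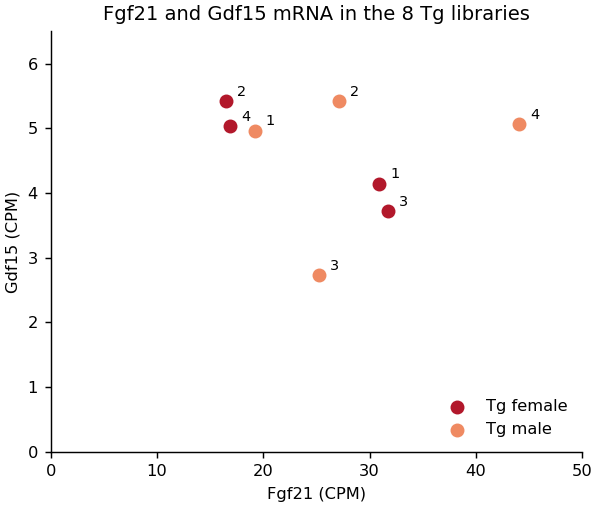
Gdf15 against Fgf21 in CPM, each point 1 Tg library, numbered within its sex. Fgf21 runs from 16.5 to 44.1 CPM and Gdf15 from 2.73 to 5.42 CPM, with r = -0.23 on the log2 scale.

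The level of either hormone gene was also set against Slc25a4, Atf4, Atf5, Ddit3, Trib3 and the summed adipocyte and macrophage markers in the Tg libraries. Of the 15 relations, that between the hormone genes included, none had an adjusted p below 0.05 (0.971 for every Pearson r, exact permutation tests with Benjamini-Hochberg adjustment). For Fgf21 and Slc25a4, r was -0.01 (exact permutation p = 0.97, rho -0.12, p = 0.793). The pair farthest from 0 was Fgf21 and the adipocyte marker sum, with r = -0.64 (exact permutation p = 0.0861, adjusted p = 0.971) and rho = -0.57 (exact permutation p = 0.151, adjusted p = 0.915). Without the 2 libraries farthest in x, Tg female 4 and Tg male 4, this r was -0.17. Leaving out the ends of x narrows its range, which by itself can weaken r. Centred within sex this r was -0.75 (exact permutation p = 0.0324, adjusted p = 0.486). With 8 mice, only strong relations could have been seen.

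The few WT counts were set against the fat markers. The 8 adipocyte markers summed to 177 to 1525 CPM in Tg libraries (median 779.7) and 174 to 3658 CPM in WT libraries (median 519.5). Of the 8, 0 were called between the genotypes by edgeR, DESeq2 or limma-voom (0 also at an unadjusted edgeR p under 0.05). Over all genes tested, edgeR called 17.2% higher and 13.3% lower. All 8 had fold changes below 0 (median log2 -0.87), with SEs from 0.63 for Fabp4 to 1.1 for Pck1. With such SEs, a difference in fat content could have been missed. All 5 Fgf21 counts of WT muscle came from the 3 fat-rich WT libraries, whose adipocyte sums were 2840, 3630 and 3660 CPM. The 5 other WT libraries had 0. Of the 9 WT counts of Gdf15, those 3 libraries held 7, and WT male 2, with 174 CPM of adipocyte markers, held 2. The part of fat cells in these WT counts was not tested. In bulk tissue, fewer cells of a type and less RNA per cell cannot be told apart.

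Across the Tg libraries, Pearson's r with the adipocyte marker sum was -0.64 for Fgf21 and -0.03 for Gdf15 (exact permutation, adjusted p = 0.971 for each). The Fgf21 value was -0.17 without Tg male 4 and Tg female 4, and -0.75 when centred within sex. Tg male 4, with 177 CPM of adipocyte markers, had 44.1 CPM of Fgf21, and Tg female 4, with 1520 CPM, had 16.9 CPM. Without the 4 fat-rich libraries, Fgf21 had 4815 counts in 7 Tg libraries and 0 in 5 WT libraries, at least 999-fold higher when the WT group is set at a limit of 3 counts. Gdf15 then had 768 counts in Tg and 2 in WT libraries, a ratio of 239 (exact 95% interval 66.0 to 1978). Both stayed called (edgeR adjusted p = 4.37e-05 for Fgf21 and 5.54e-07 for Gdf15). Markers of other cells known to make these hormones were read too. The hepatocyte markers summed to 12.2 to 126 CPM in Tg libraries and 5.05 to 379 CPM in WT libraries. Most of that sum was Cyp2e1, which fat also expresses, with 6.19 to 112 CPM in Tg and 4.53 to 370.1 CPM in WT libraries. The albumin gene Alb had 4.16 ± 1.70 CPM in Tg and 1.93 ± 2.13 CPM in WT muscle. Ttr, the gene of transthyretin, had 0.182 to 42.0 CPM in Tg libraries and 0 to 4.74 CPM in WT libraries. Apoa1, Ahsg, Serpina1a and Fga lay below 1 CPM in every library. The macrophage markers summed to 50.7 to 257 CPM in Tg libraries and 90.0 to 282 CPM in WT libraries. Of the 4 hepatocyte and 9 macrophage markers that could be tested, 0 were called by edgeR or DESeq2 and 0 had an unadjusted edgeR p under 0.05, while limma-voom called 1, Alb, higher. Of all genes tested, edgeR called 17.2% higher and 13.3% lower. The median log2 fold change was 0.94 for the hepatocyte markers and -0.48 for the macrophage markers. A marker that was not called is not thereby shown to be equal between the genotypes. The part of such cells in the hormone levels was not tested.

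**Figure D3:**
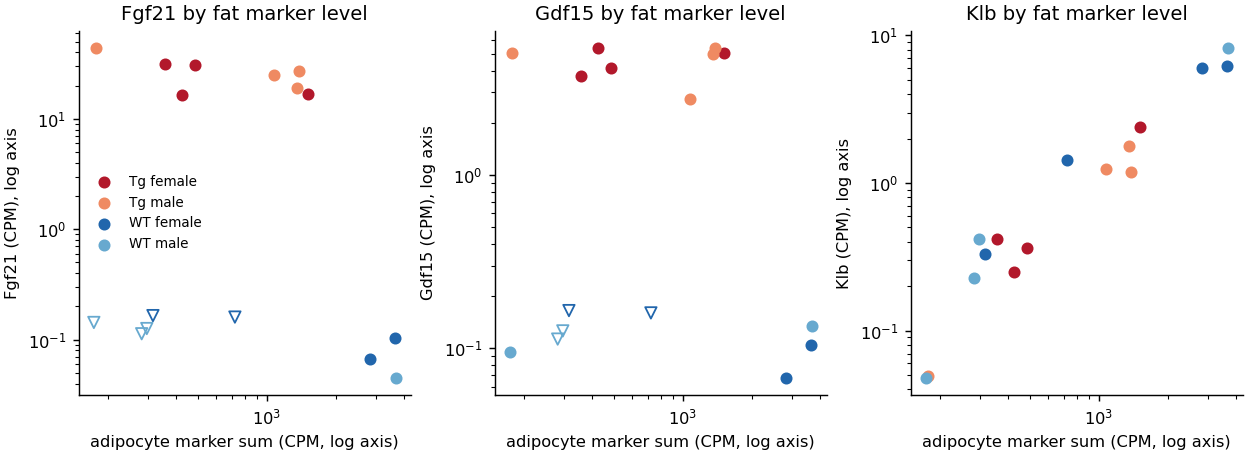
Fgf21, Gdf15 and the beta-Klotho gene Klb (CPM, log axes) against the sum of 8 adipocyte markers, each point 1 library, with Tg and WT of each sex in their own colours; open triangles are 0 counts at the limit of 3 counts. For both hormone genes every Tg library lies above every WT library, although the 3 WT libraries at 2840 to 3660 CPM of fat markers have no Tg library beside them, while Klb runs from 0.0491 to 2.39 CPM in Tg libraries and 0.0476 to 8.24 CPM in WT libraries along the fat markers.

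The receptor genes for FGF21 were read next. Counts over gene lists are set against the 17.2% of all genes tested that were called higher and the 13.3% called lower (14.2% and 14.3% without the fat-rich libraries). Of 6 receptor and co-receptor genes tested, 1 rose and 1 fell, also without the fat-rich libraries (median log2 fold change -0.53, or 0.19 without them, against -0.01 over all genes). For so few genes these numbers are near the shares over all genes and do not set the receptors apart. Fgfr1, the receptor through which FGF21 mainly signals, had 36.0 ± 5.02 TPM in Tg muscle and 36.4 ± 6.22 TPM in WT muscle (SD, n = 8 each), a log2 fold change of -0.06 (SE 0.12, edgeR adjusted p = 0.74). In Tg muscle, each Fgf21 TPM value, 51.8 or more, lay above each Fgfr1 value, 44.7 or less. In CPM the order was the reverse, with 94.2 to 148 CPM of Fgfr1 and 16.5 to 44.1 CPM of Fgf21. The order in TPM thus depends on the exonic lengths, which join the exons of all annotated transcripts.

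Klb, which encodes beta-Klotho and is abundant in fat, was low outside the fat-rich libraries. Klb had 0.363, 0.251, 0.421 and 2.39 CPM in Tg females and 1.77, 1.19, 1.25 and 0.0491 CPM in Tg males. It had 6.04, 6.25, 1.44 and 0.331 CPM in WT females and 8.24, 0.0476, 0.419 and 0.226 CPM in WT males. The 3 highest values were those of the fat-rich WT libraries, and the genotypes overlap. The log2 fold change was -1.54 (SE 0.90, edgeR adjusted p = 0.226), and it became 0.06 without WT male 1 and 0.41 without the 4 fat-rich libraries. The part of fat cells in the Klb level was not tested.

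Kl, which encodes alpha-Klotho, the co-receptor of the related hormone FGF23, rose. It had 2.03, 2.81 and 3.93 CPM as lowest, median and highest of the Tg libraries, against 0.238, 0.675 and 0.755 CPM in WT libraries, a 4.73-fold difference (log2 2.24, SE 0.22, edgeR adjusted p = 1.27e-06). No WT library reached a Tg library, which held for 5.23% of the genes tested. Fgfr4 fell, to 1.36 ± 0.108 CPM in Tg muscle, against 2.52 ± 0.57 CPM in WT muscle (log2 -0.89, SE 0.14, edgeR adjusted p = 0.000205). Fgfr3 (2.86 ± 0.897 CPM in Tg and 3.18 ± 1.13 CPM in WT muscle, log2 fold change -0.16) was not called. Fgfr2 (0.391 ± 0.265 CPM in Tg and 1.48 ± 2.32 CPM in WT muscle, log2 fold change -1.80, edgeR adjusted p = 0.122) was not called, and its fold change became 0.37 without the fat-rich libraries. The annotated span of Fgfr2 overlaps 25 other listed genes.

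For GDF15, the receptor gene Gfral was not analysed here. Its signalling partner Ret had 5.57 ± 0.979 CPM in Tg muscle and 5.64 ± 1.48 CPM in WT muscle (log2 fold change 0.00, SE 0.12, edgeR adjusted p = 0.996). Among the relatives of GFRAL, which bind ligands of the GDNF family, 0 of 3 tested were called by edgeR, DESeq2 or limma-voom or without the fat-rich libraries, and 1, Gfra1, had an unadjusted edgeR p under 0.05. Gfra1 came nearest, with 8.6 ± 2.16 CPM in Tg and 6.64 ± 1.24 CPM in WT muscle (log2 0.36, SE 0.13, edgeR adjusted p = 0.0529). It would be called without Tg female 1, Tg male 1, WT female 3 or WT male 4 (edgeR adjusted p = 0.0346, 0.0283, 0.0123 and 0.0465). Gfra2 had a log2 fold change of -0.23 and Gfra4 of 0.02, while Gfra3, at 0.224 ± 0.0815 CPM in Tg and 0.277 ± 0.108 CPM in WT muscle, was too low to test.

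**Figure D4:**
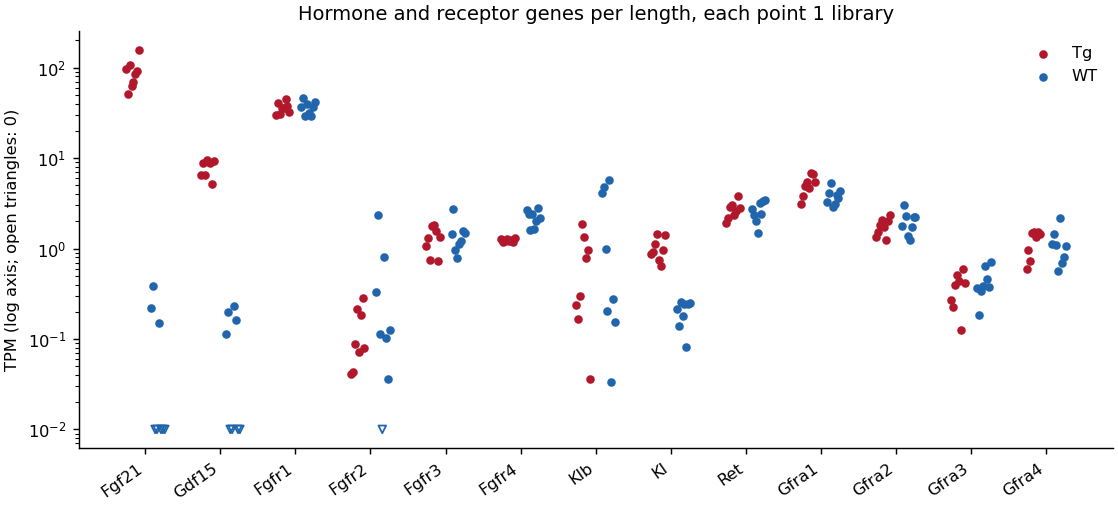
Hormone genes and the genes of their receptors and relatives in TPM (log axis), each point 1 library, Tg left of WT; open triangles stand for 0. In Tg muscle Fgf21 (51.8 to 156 TPM) exceeds Fgfr1 (29.7 to 44.7 TPM), whereas in WT muscle Fgfr1 (29.0 to 46.6 TPM) exceeds Fgf21 (0 to 0.387 TPM). In CPM, without division by length, Fgfr1 exceeds Fgf21 in Tg muscle too.

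The known regulators of the hormone genes were then read from lists that had been written with earlier results of these data known. Of 19 transcription factors that act on Fgf21 or Gdf15 in the literature, 8 rose and 4 fell (median log2 fold change 0.20), against 17.2% and 13.3% of all genes tested. Without the fat-rich libraries 9 rose and 3 fell (median 0.30). Atf5, a factor that responds to mitochondrial stress, had 451 ± 39.8 CPM in Tg muscle and 45.5 ± 8.64 CPM in WT muscle (log2 3.31, SE 0.11, edgeR adjusted p = 3.28e-12). Atf4 had 329.6 ± 17.1 CPM in Tg muscle and 149.5 ± 18.9 CPM in WT muscle (log2 1.15, SE 0.05, edgeR adjusted p = 1.57e-10). The C/EBP partner Cebpg and the endoplasmic reticulum stress sensor Atf6 rose by 1.33 and 0.98 on the log2 scale. Ppara, which drives Fgf21 in fasted liver, had 18.1 ± 5.73 CPM in Tg and 20 ± 13 CPM in WT muscle, a log2 fold change of -0.07 (SE 0.27, edgeR adjusted p = 0.867). Trp53, the gene of p53, a known regulator of GDF15 in human cells, had a log2 fold change of 0.20 (SE 0.10, edgeR adjusted p = 0.126). Ppara and Trp53 were singled out after their values had been seen.

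Upstream of ATF4, the messenger RNAs of the eIF2 alpha kinases, of eIF2 alpha itself and of a mitochondrial relay (Dele1 and Oma1) mostly did not pass the test. Of 7 genes tested, 0 rose and 1 fell (median log2 fold change -0.07), against 17.2% and 13.3% of all genes tested. For so few genes these numbers are near those shares. The same numbers came from edgeR at an unadjusted p under 0.05, DESeq2 and limma-voom. The one that fell was Eif2ak2, the kinase that senses double-stranded RNA, with 6.48 ± 0.894 CPM in Tg and 8.34 ± 1.60 CPM in WT muscle (log2 -0.36, SE 0.11, edgeR adjusted p = 0.0246). Its adjusted p in edgeR exceeded 0.05 without Tg female 2, Tg male 4 or WT female 3 (0.0525, 0.0523 and 0.0519), with fold changes of -0.31, -0.33 and -0.29, and without the fat-rich libraries (0.0769), with a fold change of -0.36. In that last comparison the 1 gene called lower was Eif2ak1, the heme-regulated kinase (log2 -0.22, edgeR adjusted p = 0.00818), which had -0.14 (0.126) over all libraries. Kinase activity and phosphorylation were not measured.

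The other known targets of the integrated stress response rose with the hormone genes. Of 26 genes tested, 22 rose and 1 fell, against 17.2% and 13.3% of all genes tested, with a median log2 fold change of 2.12. Without the fat-rich libraries 23 rose and 1 fell (median 2.41), the added gene being Phgdh of serine synthesis (log2 3.05, edgeR adjusted p = 2.66e-06, against 1.48 and 0.0648 over all libraries). Mthfd2, a mitochondrial folate enzyme, had 287 ± 31.5 CPM in Tg muscle and 3.93 ± 0.455 CPM in WT muscle (log2 6.19, SE 0.07, edgeR adjusted p = 1.35e-18). Aldh18a1 of proline synthesis, the amino acid transporter Slc7a5 and the mitochondrial carboxykinase Pck2 rose by 4.51, 5.69 and 2.64 on the log2 scale. In this list, the fold change of Fgf21 lay below that of Slc7a11 only, which had 9.99 (9.35 without the fat-rich libraries, where Fgf21 had 12.34), and that of Gdf15 below those of Slc7a11 and Fgf21. These places depend on the prior count: with a prior count of 5, Fgf21 had 6.79 and Gdf15 4.19. The exact 95% interval of the Gdf15 count ratio, 47.0 to 197, also spans the 72.9-fold change of Mthfd2. The gene that fell was Vldlr, a lipoprotein receptor, with a log2 fold change of -0.52 (edgeR adjusted p = 1.58e-05), named after its value had been seen.

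**Figure D5:**
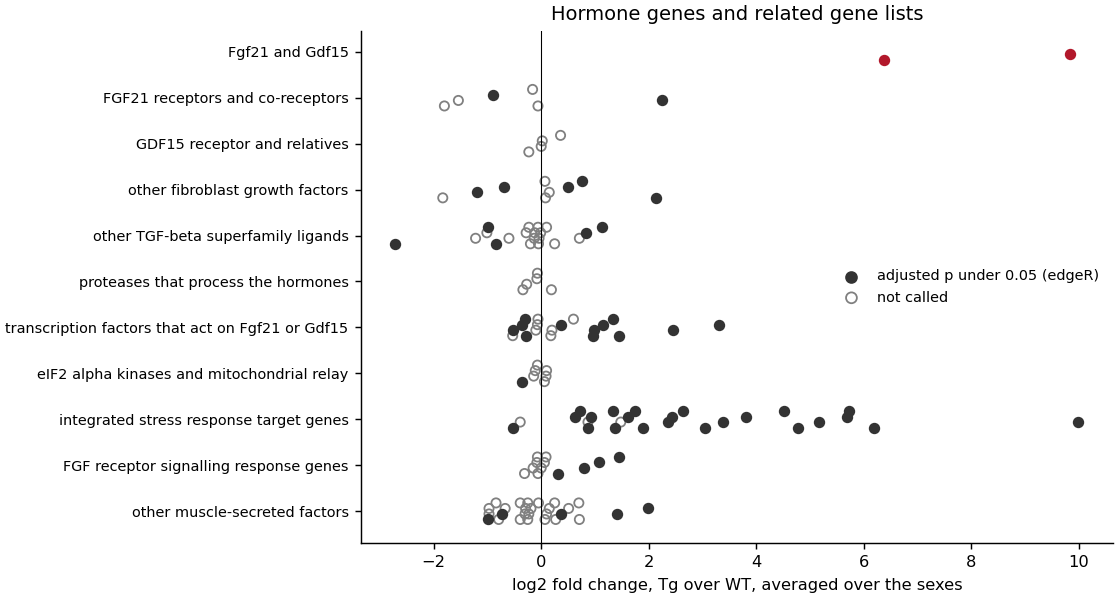
Log2 fold change of Tg over WT muscle averaged over the sexes, each point 1 tested gene, for Fgf21 and Gdf15 and for 10 related lists; filled points have an edgeR adjusted p under 0.05. Fgf21 at 9.84 and Gdf15 at 6.37 lie beyond nearly all points, and 22 of the 26 stress response targets are filled to the right of 0.

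The other members of both ligand families were then read. Of 9 other fibroblast growth factor genes tested, 3 rose and 2 fell (median log2 fold change 0.08; 3 and 1, median -0.06, without the fat-rich libraries), while 10 more were listed but too low to test. Fgf7, a growth factor for epithelia, had 14.1 ± 3.08 CPM in Tg and 3.22 ± 1.11 CPM in WT muscle (log2 2.13, SE 0.20, edgeR adjusted p = 1.08e-06). Fgf11, an intracellular family member, rose by 0.49, and Fgf2 and the muscle-expressed Fgf6 had log2 fold changes of -1.19 and -0.69. Without the fat-rich libraries Fgf6 was no longer called, at a fold change of nearly the same size (-0.66, edgeR adjusted p = 0.0755). Of 20 other ligands of the TGF-beta superfamily, 2 rose and 3 fell (median -0.12, or -0.21 with the same numbers called without the fat-rich libraries), against 17.2% and 13.3% of all genes. Tgfb2 had 36.3 ± 7.61 CPM in Tg and 20.6 ± 4.27 CPM in WT muscle (log2 0.83, edgeR adjusted p = 0.000182), and Gdf11, a relative of myostatin, had 12.8 ± 3.21 CPM in Tg and 25.9 ± 8.16 CPM in WT muscle (log2 -0.98, edgeR adjusted p = 0.000324). Bmp8a had a log2 fold change of -2.71 and the oocyte factor Gdf9 one of 1.14, each at under 1 CPM, and without the fat-rich libraries Gdf9 was no longer called (log2 1.02, edgeR adjusted p = 0.0541).

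Furin, one of the proteases that cleave such precursors, had 50.6 ± 4.11 CPM in Tg and 53.6 ± 6.42 CPM in WT muscle (log2 -0.08, SE 0.08, edgeR adjusted p = 0.443), and 0 of the 5 protease genes tested were called by edgeR, DESeq2 or limma-voom (1 at an unadjusted edgeR p under 0.05), and 0 without the fat-rich libraries. Of 27 other factors known to be secreted by muscle, 3 rose and 2 fell (median -0.23), against 17.2% and 13.3% of all genes tested. For so few genes these numbers are not far from those shares. Without the fat-rich libraries 3 rose and 1 fell, and the median turned to 0.15. The gene whose call was lost was Apln, of the peptide apelin (log2 -0.48, edgeR adjusted p = 0.246, against -0.73 and 0.0316 over all libraries). Ostn, which encodes musclin, had 80.3 ± 20.1 CPM in Tg and 24.2 ± 19.6 CPM in WT muscle (log2 1.98, SE 0.25, edgeR adjusted p = 4.76e-05). Igf2 rose by 1.41 and Vegfa by 0.37 on the log2 scale.

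Genes known to respond to FGF receptor signalling were examined as well. Of 12 tested, 4 rose and 0 fell (median 0.03), where 17.2% and 13.3% of all genes were called, with the same numbers without the fat-rich libraries (median 0.09), at an unadjusted edgeR p under 0.05 and in DESeq2 and limma-voom. The transcription factor Etv5 had 24.5 ± 5.50 CPM in Tg and 14.1 ± 1.93 CPM in WT muscle (log2 0.80, edgeR adjusted p = 0.000183). Egr1, an immediate early gene, and the phosphatase gene Dusp4 rose by 1.44 and 1.08, and Spry2, a feedback inhibitor, by 0.31. The other 8 were not called. For Fgf7, Fgf2, Atf5, Igf2, Fgfr1 and Bcat2 another listed gene overlaps on the opposite strand and for Bmp8a on the same strand, and how reads there were assigned is not stated in the labels.

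The genes next to the hormone genes were examined by position. Fut1, a fucosyltransferase gene, begins 1799 bases from the start of Fgf21 on the opposite strand, so that the genes point away from each other. Fut1 had 99, 75, 94 and 72 counts in Tg females and 71, 107, 96 and 108 in Tg males, against 0, 0, 0 and 1 in WT females and 1, 0, 0 and 0 in WT males. The genotypes again did not overlap, with 3.71 ± 0.866 CPM in Tg muscle and 0.0125 ± 0.0233 CPM in WT muscle (SD, n = 8 each). All Tg libraries lay above all WT libraries for 5.23% of the genes tested. The ratio of the pooled counts, with 2 counts in all WT libraries, was 327 (exact 95% interval 90.3 to 2709), and the log2 fold change was 7.81 (SE 0.37, edgeR adjusted p = 2.13e-10). The annotated spans of Fut1 and Fgf21 do not overlap.

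The other genes near the hormone genes were read as well. On the other side of Fgf21, Bcat2, an enzyme of branched-chain amino acid breakdown, had 64.1 ± 4.94 CPM in Tg and 72.6 ± 8.55 CPM in WT muscle (log2 -0.18, SE 0.07, edgeR adjusted p = 0.0549). Bcat2 was called by DESeq2 (0.0224), and by edgeR with DESeq2 size factors (0.0373), with the 1 CPM filter (0.0485), without Tg male 2 (0.0265) and without WT female 3 (0.0105), at log2 fold changes of -0.22 to -0.18. Within 50000 bases of Fgf21, 2 of 6 genes tested were higher and 0 lower, where 17.2% and 13.3% of all genes were: Fut1 and A030001D20Rik, with a log2 fold change of 0.33. Izumo1, the next gene beyond Fut1, had 5 counts in Tg and 5 in WT libraries. Around Gdf15, 1 of 6 rose (Lsm4, 0.44) and 1 fell (Ell, -0.15), about the shares over all genes. The nearest tested genes of Gdf15 were not called: Lrrc25 had a log2 fold change of -0.67 (edgeR adjusted p = 0.112) and Pgpep1 of 0.11 (edgeR adjusted p = 0.371). Lrrc25, at under 1 CPM, was called without Tg male 3 (0.0429) and without WT female 4 (0.0305).

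Finally, genes were ordered by how like their pattern over the 16 libraries was to that of each hormone gene, by the root mean square difference of centred log2 CPM, among 10724 genes. These had a mean of at least 1 log2 CPM in Tg libraries, with no limit on the WT level, and predicted genes and clones were left out. Since the genotypes lie far apart, this order mainly finds genes with a similar difference between the genotypes. It does not show shared variation between mice. Nearest to Fgf21 were Slc7a11, the cystine transporter (1.22), Fut1 (1.54), Vmn2r3 (1.62), Gdf15 (1.65) and Mthfd2 (1.83). Slc7a11 had 21.9 ± 4.84 CPM in Tg and 0.0193 ± 0.0391 CPM in WT muscle. Vmn2r3, of a large family of similar vomeronasal receptor genes among which reads may be shared, had 548 counts in Tg and 0 in WT libraries, at least 166-fold higher with 3 counts set for the WT group. Nearest to Gdf15 were Trib3 (0.85), Psat1 (0.87), Asns (0.91), Slc7a5 (0.95) and Mthfd2 (0.98), with Fgf21 at place 16. Trib3, a pseudokinase gene, had 75.2 ± 15.3 CPM in Tg and 1.40 ± 0.617 CPM in WT muscle. Psat1 of serine synthesis had 157 ± 17.1 CPM in Tg and 4.31 ± 3.52 CPM in WT muscle, and Asns, asparagine synthetase, 86.1 ± 8.63 CPM in Tg and 3.20 ± 2.70 CPM in WT muscle. Without the fat-rich libraries the log2 fold change was 6.28 for Psat1 and 6.05 for Asns, against 5.17 and 4.77 over all libraries. With a prior count of 2 instead of 0.5, 2 of the 5 genes named for each hormone gene were again among its 5 nearest.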

How the data were processed

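Poly(A)-selected stranded libraries from quadriceps RNA were sequenced as paired ends, per the labels. The deposited files hold 1 value per gene symbol and library, which were taken as estimated counts made by the authors, since no label gives the unit, the values sum to different totals and 95.02% of the nonzero ones are whole within 0.01 or 1e-05 of their size. Tools listed in the submitters' processing notes are bcl2fastq, TopHat2, Bowtie2 and cutadapt 1.2.1, with the build mm10. For the counting program, its annotation and its strand setting, a source is not given here.

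Values were rounded to whole counts. Genes were filtered with filterByExpr (minimum count 10, minimum total 15), scaled by TMM and fitted in edgeR 4.0.16 (R 4.3.3) with 1 mean per group of genotype and sex over all 16 libraries. The robust quasi-likelihood F test was used, with Benjamini-Hochberg adjustment over 13666 genes and calls at 0.05. The SE is the log2 fold change over the square root of F. For the hormone genes, with so few WT counts, it is too small as a measure of precision between the genotypes. The SEs of different comparisons cannot be combined. All tests are two-sided, and p-values measure the spread between mice. On simulated data of 13519 genes for the averaged comparison, 84.8% of genes changed by 1 log2 unit and 93% of those changed by 2 were recovered, with 4.84% false calls. The lowest WT means were raised there and no larger change was planted. The simulation thus does not cover genes with the WT levels and fold changes of Fgf21 and Gdf15.

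TPM used exonic lengths of GENCODE M21, in which 18753 symbols (98.14%) matched 1 gene. A length is the union of the exons of all annotated transcripts of a gene, which can exceed that of the transcripts present. Intervals of count ratios are exact (Clopper-Pearson, 95%). Reads carried no molecular identifiers, so intervals and limits cover counting error only. Members and lists were chosen with earlier results of these data known. Named genes are the hormone genes, Slc25a4, all receptor genes, up to 4 called genes per other list by smallest adjusted p (or the most abundant one where none was called), the 5 genes nearest in pattern with a mean of at least 1 log2 CPM in Tg libraries, and the nearest tested neighbours. Others that are named were chosen after their values were seen. The marker lists of endothelial cells and fibroblasts had 0 called genes each, of 5 tested. Of the 10 myofibre markers 1 was called higher and 2 lower, and of 3 brown adipocyte markers tested 0 were called. Over all genes tested, 17.2% were called higher and 13.3% lower. For lists this short, such counts do not show equal cell content.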

Additional observations from a re-analysis of the deposited data

Results flagged for a closer look

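Each value here stood far from the other 3 mice of its group of 4. Among 190 groups examined over 48 genes, 18 values did so. For normally distributed values, chance flags about 1 in 20 groups. A group with counts in 1 library and 0 in the other 3 is always flagged, as for the WT values of Fgf21, Fut1 and Slc7a11 below. The 18 flags can therefore not be set against that rate.

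Fgf21 in WT male 1 was 0.0446 CPM, which is 1 count where the other WT males had 0. Next to Fgf21, Fut1 was 0.0552 CPM in WT female 4 and 0.0446 CPM in WT male 1, again single counts among libraries at 0. Slc7a11 was 0.107 CPM in WT female 3 and 0.0476 CPM in WT male 2, with 0 in the rest of each group, and 28.2 CPM in Tg female 1, against 17 to 17.5 CPM in the other Tg females.

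Among the receptor genes, Fgfr1 was 133 CPM in Tg female 2, Kl was 0.238 CPM in WT male 2, and Fgfr2 was 6.82 CPM in WT female 2 and 2.63 CPM in WT male 1. Klb was 2.39 CPM in Tg female 4 and 8.24 CPM in WT male 1. Apart from Fgfr1 and Kl, these receptor values belong to libraries with high fat markers, whose part was not tested.

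WT male 1 was also high in Psat1 (11.1 CPM), Asns (6.42 CPM) and Eif2ak2 (8.6 CPM). Psat1 was 163 CPM in Tg male 4. Spry2 was low in WT female 4 (6.84 CPM), and Lrrc25 was low in WT male 2 (0.381 CPM).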

How the results depend on the processing

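Fgf21 and Gdf15 kept their direction and stayed called, averaged and in each sex, under other scaling and filters, DESeq2, limma-voom, an adipocyte marker covariate, larger prior counts, each library left out in turn and the 4 fat-rich libraries left out (the last chosen after seeing the data). Averaged, the log2 fold change ranged from 6.79 to 12.34 for Fgf21 and from 4.19 to 8.37 for Gdf15, and with 1 library left out from 9.67 to 10.64 and from 6.15 to 6.77. The values at the top come from a comparison with 0 or 2 WT counts and are no bounds. With 1 library left out, the count ratio was 808 to 1411 for Fgf21 and 76.4 to 118 for Gdf15. Without the fat-rich libraries, the Gdf15 ratio moved to 239 and the genes called higher in females to 914. Genes called lower in females numbered 674 to 1463 with 1 library left out (lowest without Tg female 3, and 687 without Tg female 2).

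For the interaction, 1 gene was called by edgeR, 87 by DESeq2, 8 without a filter, 13 with the adipocyte covariate and 7 without the fat-rich libraries. Between the Tg sexes these counts were 72 by edgeR, 166 by DESeq2, 122 with the covariate and 150 without the fat-rich libraries. Neither hormone gene was among them.

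Differences that edgeR did not call changed sign. With 1 library left out, the Tg male minus Tg female difference was -0.02 to 0.42 for Fgf21 and -0.11 to 0.17 for Gdf15 (0.03 without the fat-rich libraries), and the Gdf15 interaction was -0.77 to 0.59. The cause was not tested. Without the 2 libraries farthest in x, r became 0.36 for Fgf21 with Slc25a4, 0.15 for Fgf21 with Ddit3, 0.57 for Gdf15 with Atf4, 0.06 for Gdf15 with the adipocyte sum and 0.75 for Gdf15 with the macrophage sum (adjusted p 0.903 for each, exact permutation). Centred within sex, r became 0.09 for Fgf21 with Slc25a4 and -0.01 for Gdf15 with Trib3. Among the receptors, Fgfr2 became 0.37, Fgfr3 0.01 and Klb 0.41 without the fat-rich libraries, and the ranges with 1 library left out were -0.25 to 0.02 for Fgfr3, -2.17 to 0.06 for Klb, -0.07 to 0.08 for Ret and -0.10 to 0.23 for Gfra4. Ret was -0.02 with DESeq2 size factors, the DESeq2 test and limma-voom, and -0.00 with the 1 CPM filter and the additive model, as was Gfra4 with DESeq2. Fgfr2 was called by DESeq2 (adjusted p = 0.0469).

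No paired analysis was possible because the labels carry no replicate numbers and link no transgenic mouse to a littermate. In promoter windows cut to the 250 bases before the start, the shares were 3.45%, 6.02%, 12.4%, 1.55% and 10.2% in the order above. Depth limits the WT side: with 5 and 9 counts in all, the size of the fold changes is known only within wide intervals, and no sex difference in the WT level can be read. Messenger RNA says nothing of hormone secretion.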
